A study of Mus musculus with 8 samples.

Results

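Genes of glucose uptake, glycolysis, lactate handling and the pentose phosphate pathway were followed in mouse OT-I CD8+ T cells, which carry a transgenic receptor for SIINFEKL, a peptide of ovalbumin. The set was a fixed list of 32 gene symbols, and all 32 had an entry of that exact symbol among the 41730 entries of the count table. RNA was sequenced from 8 libraries. The 4 RGX-104 libraries (replicates 5 to 8) came from T cells kept with peptide-loaded dendritic cells grown from bone marrow, with 2 µM of the synthetic liver X receptor (LXR) agonist RGX-104 in the culture. The 4 control libraries (replicates 1 to 4) came from the same kind of co-culture with the solvent DMSO. T cells of both groups carried the OT-I genotype and were sorted before RNA was isolated. The labels give neither the length of culture nor the age of the mice, nor do they state that each library had its own culture or animal, and p-values therefore measure only the spread between these libraries, which may be technical. The comparison asks how transcripts of sugar metabolism in the T cells compare with and without the agonist in the culture.

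Activated T cells take up glucose through the transporters Slc2a1 and Slc2a3 and break it down to pyruvate, which lactate dehydrogenase reduces to lactate for export. Glucose 6-phosphate can leave this route for the pentose phosphate pathway, whose oxidative branch makes NADPH and whose non-oxidative branch makes ribose phosphate for nucleotides. Hif1a, the oxygen-regulated subunit of hypoxia-inducible factor, is known to drive many of these genes through short ACGTG or GCGTG cores in their promoters.

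Promoter windows of 250 bases before to 50 bases after a transcript start were taken from RefSeq (GRCm38.p6) and were found for 31 of the 32 genes, in 45 windows, some of which overlap within a gene. An ACGTG core on either strand stood in 20 of the 45 windows (44.4%), against 25.8% of 11862 windows of the genes tested and 19.6% of all 32851 windows. A GCGTG core stood in 27 windows (60%), against 50.3% of the windows of tested genes and 32.4% of all windows. CACGTG, the E-box bound by MYC family factors, which holds the ACGTG core within it, stood in 5 windows (11.1%), against 10.1% and 7.15%. The ATF4 element TGATGNAA stood in none of the 45 windows (2.28% of windows of tested genes), and the LXR element, AGGTCA repeated in the same direction after a gap of 4 bases, stood in none (0% of windows of tested genes). These matches describe letters and are not binding sites. The windows of 3 genes are shown for their values below: Pfkp was the only gene of the set called lower, Slc16a3 had one of the larger uncalled differences, and Ldha had one of the narrowest intervals around no difference. Capitals mark ACGTG and GCGTG on either strand (CACGT and CACGC where the core lies on the other strand), each sequence runs 5′ to 3′ along the gene, and the windows are chr13:6648722-6649021 on the minus strand for Pfkp, chr11:120948817-120949116 on the plus strand for Slc16a3 and chr7:46845554-46845853 on the plus strand for Ldha, whose second window is not shown.
Pfkp: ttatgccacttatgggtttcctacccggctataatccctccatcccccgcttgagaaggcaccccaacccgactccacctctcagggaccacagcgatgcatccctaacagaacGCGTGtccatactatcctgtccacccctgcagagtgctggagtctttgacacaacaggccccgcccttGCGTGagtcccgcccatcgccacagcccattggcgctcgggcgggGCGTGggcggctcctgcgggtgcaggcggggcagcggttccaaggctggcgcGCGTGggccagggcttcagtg
Slc16a3: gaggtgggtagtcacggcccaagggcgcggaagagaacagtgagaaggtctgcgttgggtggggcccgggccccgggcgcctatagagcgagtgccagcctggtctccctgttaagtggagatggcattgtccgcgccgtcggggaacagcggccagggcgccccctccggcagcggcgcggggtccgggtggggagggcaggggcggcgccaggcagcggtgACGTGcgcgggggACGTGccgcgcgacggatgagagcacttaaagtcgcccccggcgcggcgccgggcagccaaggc
Ldha: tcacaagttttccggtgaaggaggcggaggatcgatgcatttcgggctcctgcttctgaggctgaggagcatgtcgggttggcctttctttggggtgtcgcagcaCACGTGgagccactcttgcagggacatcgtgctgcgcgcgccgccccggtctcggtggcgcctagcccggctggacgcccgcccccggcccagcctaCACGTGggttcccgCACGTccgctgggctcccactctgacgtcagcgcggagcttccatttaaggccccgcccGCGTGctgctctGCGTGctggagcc
The Pfkp window held 4 GCGTG and 0 ACGTG cores. The Slc16a3 window held 2 ACGTG and 0 GCGTG cores, and the Ldha window held 2 CACGTG boxes, 1 further ACGTG core and 2 GCGTG cores.

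Most of the set differed little between the groups. All 32 genes passed the filter on low counts, and of them 1 fell and 0 rose in RGX-104 libraries (edgeR's quasi-likelihood test, Benjamini-Hochberg adjusted p under 0.05 over 12162 genes), against 1.78% of all genes tested called lower and 0.888% called higher, or 2.66% in either direction. A count of 1 in 32 is close to that background. The gene was Pfkp, the platelet-type phosphofructokinase. The median log2 fold change (RGX-104 over control) of the set was -0.02, beside 0.00 over all genes tested. The estimates were negative for 18 genes and positive for 14, where 49.4% of all genes tested had a negative one. At an unadjusted p under 0.05 there were 7 lower and 1 higher genes, which is 25% of the set against 13.8% of all genes tested. The CPM (reads per 1000000 of the library after TMM scaling) of the groups did not overlap for 3 genes that were lower in RGX-104 (Hk1, Pfkp and Tpi1; 4.32% of all genes tested) and 2 that were higher (Ldhb and Rpia; 3.88%), together 15.6% of the set against 8.20% of all genes tested. The set was chosen with earlier results of these data known, so these shares are only a description. In bulk RNA, fewer cells of a type and less RNA per cell cannot be told apart.

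**Figure D1:**
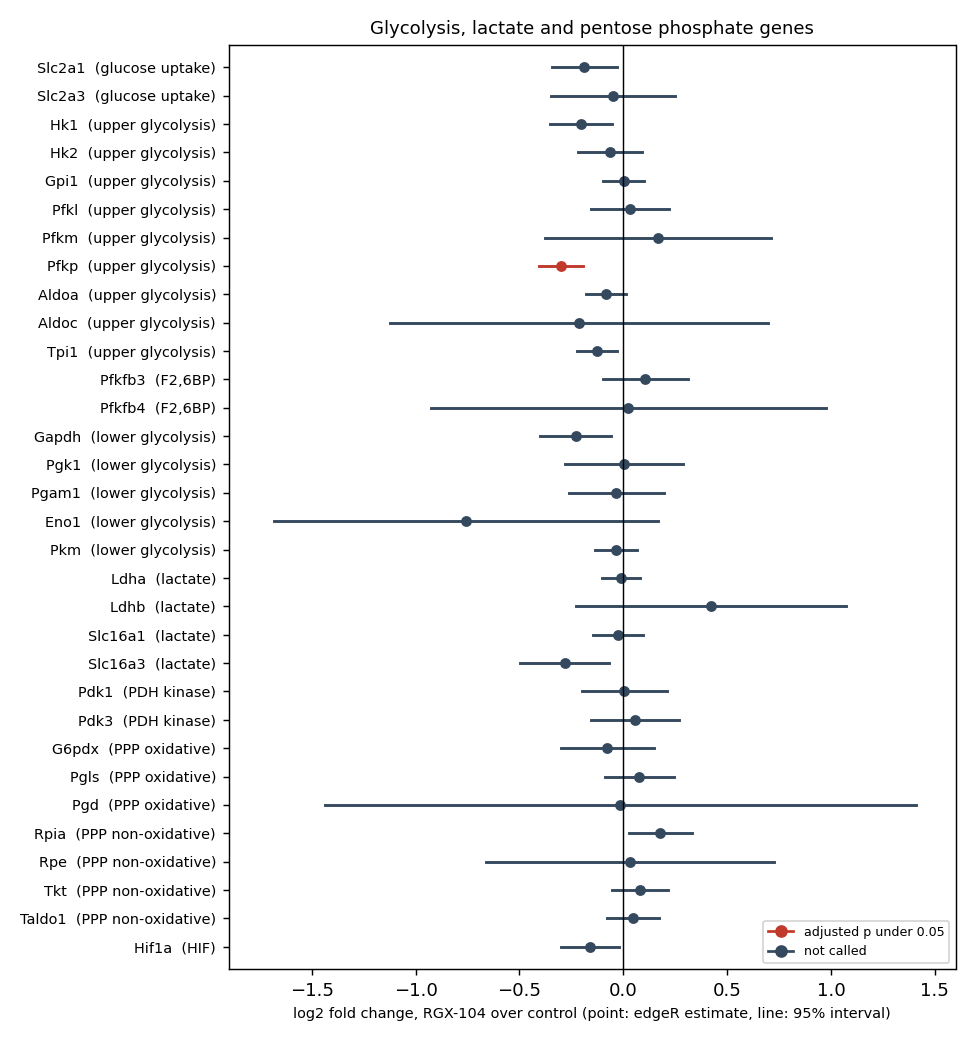
Log2 fold change of RGX-104 over control (x axis) for the 32 genes in the order of the pathway, with edgeR's estimate as a point and its 95% interval as a line (F2,6BP: control of fructose 2,6-bisphosphate, PDH: pyruvate dehydrogenase, PPP: pentose phosphate pathway, HIF: hypoxia-inducible factor). Pfkp, at -0.30, is the only gene drawn in red, and the 7 genes under 10 CPM in control have the widest lines.

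How closely a small difference could be bounded depended on the counts. For 25 genes at 10 CPM or more in control the standard error of the log2 fold change ran from 0.04 to 0.14, and for 18 of them the whole 95% interval lay within 0.32 of 0 on the log2 scale. For the 7 genes under 10 CPM (Pfkm, Aldoc, Pfkfb4, Eno1, Ldhb, Pgd and Rpe) the standard error was 0.26 to 0.69 and no interval was that narrow, so a moderate difference in them was not detectable at these counts. Why their counts were low was not tested. These intervals are per gene and are not adjusted for the number of genes. Reads come from transcript ends, so CPM is not ranked between genes, and a share of one gene in a family is read only between libraries.

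Of the 2 glucose transporters, neither was called. Slc2a1, which encodes GLUT1, the main glucose transporter induced on T cell activation, was at 79.5, 80.9, 94.1 and 81.8 CPM in RGX-104 replicates 5 to 8, against 100.6, 92.2, 100.9 and 89.6 CPM in control replicates 1 to 4. RGX-104 replicate 7 stood within the control range and the other 3 below it. The log2 fold change was -0.19 ± 0.08 (SE; 95% interval -0.34 to -0.03; edgeR adjusted p = 0.246). Slc2a3, which encodes the high-affinity transporter GLUT3, had group means of 22.3 ± 2.26 CPM in RGX-104 and 23.1 ± 4.42 CPM in control (SD, n = 4 each), with overlapping libraries.

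In upper glycolysis, where sugar is phosphorylated and split, 1 of 9 genes fell and 0 rose. Of all genes tested, 1.78% fell and 0.888% rose, and a count of 1 gene says little about the step. Pfkp (chromosome 13, 6579874 to 6649060 in GRCm38), one of 3 genes for the enzyme that commits sugar to glycolysis, was at 252.7, 243.6, 269.3 and 247.2 CPM in RGX-104 replicates 5 to 8, against 306.5, 312.1, 325.5 and 303.2 CPM in control replicates 1 to 4. Every RGX-104 library stood below every control library. The log2 fold change was -0.30 ± 0.05 (edgeR adjusted p = 0.00121), or 18.8% lower. In GENCODE M21 the end of Pfkp overlaps exons of Pitrm1, a mitochondrial peptidase gene on the opposite strand, over 748 bases, and the strand setting of the counting is not given in the sources used here. Pitrm1 itself was at 170 ± 13.2 CPM in RGX-104 and 166 ± 7.89 CPM in control (log2 fold change 0.04 ± 0.06, edgeR adjusted p = 0.867). Its part in the value of Pfkp was not tested.

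The other 2 phosphofructokinase genes were not called. Pfkl, the liver type, was at 123 ± 13.0 CPM in RGX-104 and 120 ± 17.4 CPM in control (log2 fold change 0.03, 95% interval -0.15 to 0.22), and the estimate turned negative without control replicate 2 or 4 or RGX-104 replicate 7. Pfkm, the muscle type, was at 5.42 ± 0.693 CPM in RGX-104 and 4.82 ± 1.39 CPM in control. Pfkp made up 69.4, 65.6, 65.2 and 65.5% of the counts of the 3 genes in RGX-104 replicates 5 to 8, against 69.7, 74.6, 69.3 and 72.3% in control replicates 1 to 4. By this share RGX-104 replicate 5 stood within the control range and the other 3 libraries below it. The difference between the changes of Pfkp and Pfkl was not tested.

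Hk1, one of the hexokinases that trap glucose in the cell, was at 83.1, 80.7, 89.0 and 76.4 CPM in RGX-104 replicates 5 to 8, against 90.7, 98.4, 98.4 and 91.5 CPM in control replicates 1 to 4. The groups did not overlap, but the difference was not called (log2 fold change -0.20 ± 0.07, edgeR adjusted p = 0.177). Hk2, the inducible hexokinase, had overlapping groups at 84.7 ± 1.62 CPM in RGX-104 and 88.7 ± 7.84 CPM in control. Tpi1, triose phosphate isomerase, was at 404.3, 427.6, 435.1 and 415.0 CPM in RGX-104 replicates 5 to 8, against 452.8, 461.9, 467.5 and 452.2 CPM in control replicates 1 to 4. Its groups did not overlap either (log2 fold change -0.13 ± 0.05, edgeR adjusted p = 0.200). Hk1, Tpi1 and the other uncalled genes outside the naming rule were chosen after their values were seen. Gpi1, the glucose phosphate isomerase, had nearly equal means of 331 ± 8.40 CPM in RGX-104 and 331 ± 9.17 CPM in control, with a 95% interval of -0.10 to 0.10 on the log2 scale. Aldoa, the main aldolase, was at 782 ± 29.8 CPM in RGX-104 and 828 ± 37.4 CPM in control (log2 fold change -0.08, edgeR adjusted p = 0.441), and its paralog Aldoc stayed under 4 CPM in every library.

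**Figure D2:**
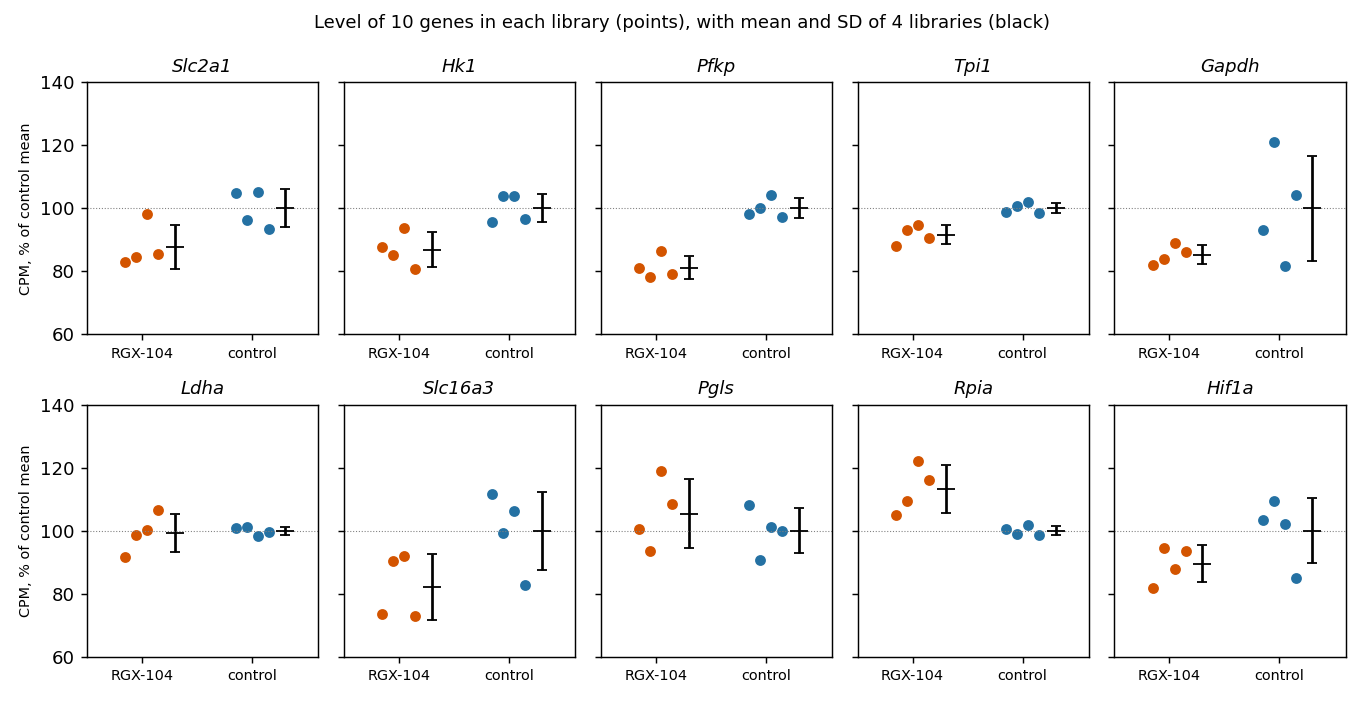
CPM of 10 genes in each library as a percentage of the control mean (y axis), with RGX-104 libraries in orange and control libraries in blue, and the mean and SD of 4 libraries in black. The groups do not overlap for Hk1, Pfkp, Tpi1 and Rpia, and overlap for Slc2a1, Gapdh, Ldha, Slc16a3, Pgls and Hif1a.

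Genes for the bifunctional enzymes that set fructose 2,6-bisphosphate, an activator of phosphofructokinase, were not called. Pfkfb3 was at 45.5, 52.3, 51.7 and 51.7 CPM in RGX-104 replicates 5 to 8, against 39.7, 48.2, 47.3 and 51.7 CPM in control replicates 1 to 4. Its groups overlapped (log2 fold change 0.11 ± 0.10, edgeR adjusted p = 0.697), and without control replicate 1 the log2 fold change was 0.04. Pfkfb4 was at 2.96 ± 1.53 CPM in RGX-104 and 2.91 ± 1.79 CPM in control, with as few as 9 counts in a library.

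In lower glycolysis, which yields ATP and pyruvate, 0 of 5 genes were called. Gapdh, the glyceraldehyde phosphate dehydrogenase often used as a reference transcript, was at 198.3, 202.4, 215.2 and 208.0 CPM in RGX-104 replicates 5 to 8, against 225.1, 292.2, 197.0 and 251.7 CPM in control replicates 1 to 4. Control libraries spread widely and control replicate 3 stood below every RGX-104 library. The log2 fold change was -0.23 ± 0.08 (edgeR adjusted p = 0.184), and without control replicate 3 it was -0.31 with an adjusted p of 0.0301, while without control replicate 2 it was -0.12 with an adjusted p of 0.507. Gapdh is also the gene of the set whose end is most often copied: transcripts of 133 other genes in GENCODE M21, 129 of them with pseudogene transcripts, matched its last 300 bases at 95% identity or more over at least 75 bases. Only 7 of these had an entry in the table, with 457 counts over all libraries against 26447 for Gapdh. How the counting treated reads that fit several places is not given in the sources used here, so the level of Gapdh is uncertain.

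Pkm, the pyruvate kinase of proliferating cells, was at 1000, 1005, 1163 and 1082 CPM in RGX-104 replicates 5 to 8, against 1109, 1068, 1054 and 1125 CPM in control replicates 1 to 4. The groups overlapped (log2 fold change -0.04 ± 0.05, edgeR adjusted p = 0.815). Pgk1, which makes the first ATP of the pathway, had means of 22.6 ± 3.26 CPM in RGX-104 and 22.5 ± 2.00 CPM in control. Pgam1, the phosphoglycerate mutase, had means of 33.9 ± 2.84 CPM in RGX-104 and 34.7 ± 3.33 CPM in control. For both the estimate was within 0.04 of 0 on the log2 scale. Eno1, the main enolase, had the most negative estimate of the set (log2 fold change -0.76 ± 0.45, edgeR adjusted p = 0.477), from 13 to 95 counts a library. Its end matched 5 other genes, and its symbol is listed again with a number appended at 0 counts, so its level is uncertain. The same repeat, at 0 or 1 count in all, exists for Hk2, Pgd and Rpe. Ends of 10 genes of the set, Gapdh and Eno1 among them, matched at least 1 other gene. The matches numbered 6 for Ldha, 4 for Pkm, 2 each for Aldoa and Tpi1, and 1 each for Gpi1, Ldhb, Pfkp and Rpe. How reads that fit several places were counted is unknown for these genes too, and their intervals do not cover it.

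Among the genes of lactate, 0 of 4 were called. Ldha, the lactate dehydrogenase subunit that favours lactate formation, was at 1256, 1353, 1373 and 1459 CPM in RGX-104 replicates 5 to 8, against 1382, 1386, 1350 and 1365 CPM in control replicates 1 to 4. RGX-104 libraries lay on both sides of the narrow control range, and the log2 fold change was -0.01 ± 0.04 (95% interval -0.10 to 0.08; edgeR adjusted p = 0.941). Mki67, a proliferation gene outside the set, was at 242.8, 192.8, 155.3 and 135.8 CPM in the same 4 RGX-104 libraries, against 222.9, 230.7, 245.9 and 222.5 CPM in control replicates 1 to 4. RGX-104 replicate 5, with the least Ldha, lay within the control range of Mki67 and the other 3 below it (Mki67 log2 fold change -0.34 ± 0.11, edgeR adjusted p = 0.124). The part of Mki67 in the values of the set was not tested. Ldhb, the subunit that favours pyruvate formation, was at 3.44, 3.41, 4.08 and 3.12 CPM in RGX-104 replicates 5 to 8, against 2.07, 2.49, 3.03 and 2.91 CPM in control replicates 1 to 4. The groups did not overlap, at 32 to 61 counts a library, and the difference was not called (log2 fold change 0.42 ± 0.31, edgeR adjusted p = 0.599).

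Neither lactate exporter was called, and the difference between their estimates was not tested. Slc16a3, which encodes the exporter MCT4, was at 48.3, 59.4, 60.3 and 47.8 CPM in RGX-104 replicates 5 to 8, against 73.1, 65.2, 69.6 and 54.4 CPM in control replicates 1 to 4. Control replicate 4 stood below 2 of the RGX-104 libraries, and the difference was not called (log2 fold change -0.28 ± 0.10, edgeR adjusted p = 0.199). Slc16a1, which encodes the lactate carrier MCT1, was at 268 ± 15.3 CPM in RGX-104 and 273 ± 16.6 CPM in control (95% interval -0.15 to 0.09 on the log2 scale). The kinases Pdk1 and Pdk3, which hold pyruvate dehydrogenase inactive, were not called. Pdk1 was at 50.3 ± 3.98 CPM in RGX-104 and 50.1 ± 5.37 CPM in control. Pdk3 was at 58.2, 74.0, 68.0 and 57.1 CPM in RGX-104 replicates 5 to 8, against 63.6, 69.9, 62.8 and 51.1 CPM in control replicates 1 to 4, with overlapping groups (log2 fold change 0.06 ± 0.10, edgeR adjusted p = 0.868).

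In the pentose phosphate pathway 0 of 7 genes were called. In the oxidative branch Pgls, the lactonase, was at 92.5, 85.8, 109.2 and 99.7 CPM in RGX-104 replicates 5 to 8, against 99.3, 83.2, 92.9 and 91.9 CPM in control replicates 1 to 4, and the groups overlapped (log2 fold change 0.08 ± 0.08, edgeR adjusted p = 0.744); without RGX-104 replicate 7 the log2 fold change was 0.01. G6pdx, the glucose phosphate dehydrogenase at the entry of the branch, was at 29.3 to 33.3 CPM in RGX-104 and 30.8 to 36.6 CPM in control. Its exons overlap those of Ikbkg on the opposite strand over 418 bases. Ikbkg was at 20.9 ± 0.188 CPM in RGX-104 and 16.9 ± 4.23 CPM in control (log2 fold change 0.30 ± 0.17, edgeR adjusted p = 0.441), and its part in G6pdx was not tested. On the same strand, Pgls overlaps Fam129c over 776 bases and Pkm overlaps Gm49759 over 767 bases. Neither symbol has an entry in the count table. Pgd had between 1 and 37 counts a library and gave a 95% interval of -1.44 to 1.41, which bounds little. In the non-oxidative branch 0 of 4 genes were called. Rpia, the isomerase that makes ribose phosphate, was at 77.2, 80.4, 89.7 and 85.2 CPM in RGX-104 replicates 5 to 8, against 73.8, 72.7, 74.6 and 72.4 CPM in control replicates 1 to 4. Every RGX-104 library stood above every control library, but the difference was not called (log2 fold change 0.18 ± 0.07, edgeR adjusted p = 0.264). Tkt, transketolase, had means of 247 ± 16.5 CPM in RGX-104 and 233 ± 20.6 CPM in control. Taldo1, transaldolase, had means of 144 ± 4.31 CPM in RGX-104 and 139 ± 6.51 CPM in control. Rpe, the ribulose phosphate epimerase, stayed under 5 CPM in every library.

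Summed over the 32 genes, the level was 6042, 6153, 6542 and 6344 CPM in RGX-104 replicates 5 to 8, against 6546, 6532, 6546 and 6481 CPM in control replicates 1 to 4. The RGX-104 mean of 6270 ± 220 CPM was 3.92% below the control mean of 6526 ± 31.0 CPM (SD, n = 4 each), and RGX-104 replicate 7 stood within the control range. Upper glycolysis summed to 2084 ± 68.6 CPM in RGX-104 and 2240 ± 54.2 CPM in control, with no overlap between the groups, a sum in which Pfkp, Aldoa and Tpi1 had the largest differences between group means. Lower glycolysis summed to 1327 ± 82.4 CPM in RGX-104 and 1391 ± 52.9 CPM in control, and the lactate genes to 1686 ± 69.3 and 1712 ± 20.6 CPM. The non-oxidative pentose phosphate genes summed to 477 ± 19.7 CPM in RGX-104 and 449 ± 17.9 CPM in control, with overlapping libraries. Of the 32 genes, 10, 8, 5 and 11 lay below the lowest control library in RGX-104 replicates 5 to 8, against 22.4 to 23.8% of all genes tested. In the same libraries 5, 5, 8 and 6 of the 32 lay above the highest control library, against 22.3 to 23.5% of all genes tested. These sums are given as a description with no test, since the genes were chosen with earlier results known.

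**Figure D3:**
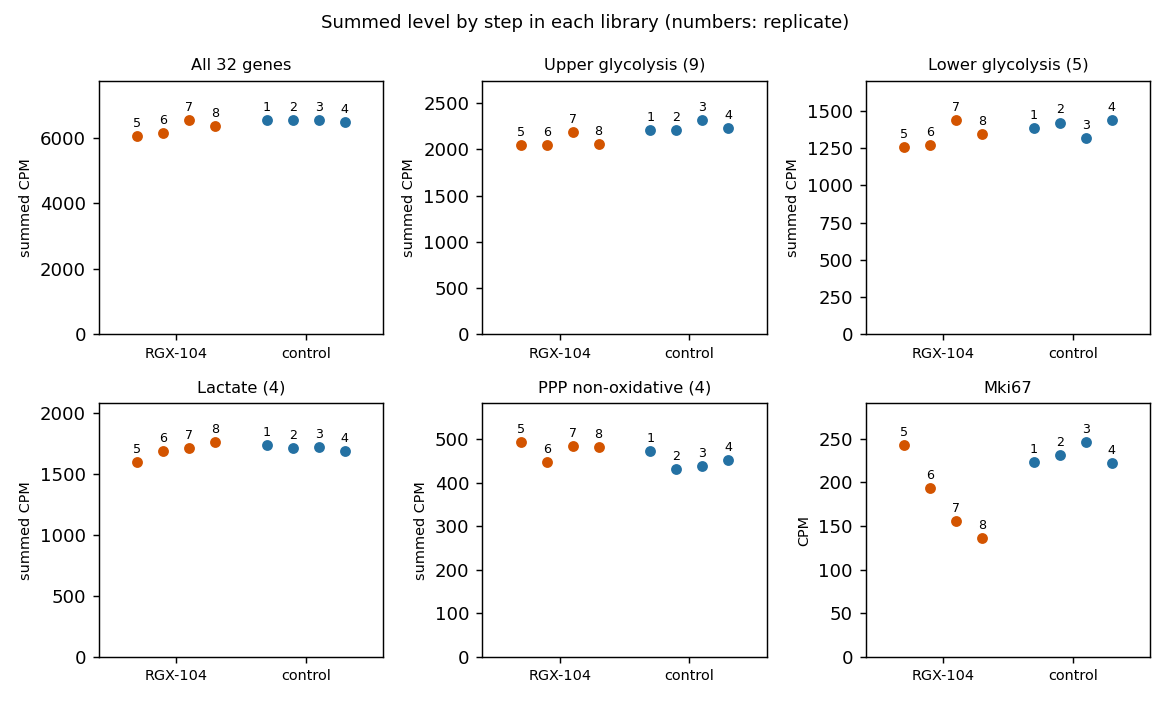
Summed CPM of all 32 genes and of 4 steps, and CPM of the proliferation gene Mki67 (y axes, all starting at 0), for each RGX-104 (orange) and control (blue) library, with replicate numbers above the points (PPP: pentose phosphate pathway). RGX-104 replicate 7 reaches the control range in the sum of all genes, and Mki67 runs from 135.8 to 242.8 CPM among RGX-104 libraries.

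Hif1a was at 268.9, 310.3, 288.2 and 307.7 CPM in RGX-104 replicates 5 to 8, against 339.7, 359.0, 335.1 and 279.7 CPM in control replicates 1 to 4. Control replicate 4 stood among the RGX-104 libraries, and the difference was not called (log2 fold change -0.16 ± 0.07, edgeR adjusted p = 0.270). By edgeR, the log2 fold change was -0.23 (adjusted p = 0.0487) without control replicate 4, -0.11 (adjusted p = 0.536) without control replicate 2 and -0.12 (adjusted p = 0.466) without RGX-104 replicate 5. Protein was not measured here, and its level, which oxygen also controls, cannot be read from the transcript.

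Around the pathway, 87 further genes had been listed, of which 86 were in the table and 60 passed the filter on low counts. Of these 60, 6 fell and 3 rose, which is 15% against 2.66% of all genes tested. The list was chosen with earlier results of these data known, so that share may reflect the choice and is only a description. Genes that hypoxia-inducible factor is known to induce or that control it made up 15 of the 60, and of these 3 fell and 1 rose. Of all genes tested, 1.78% fell and 0.888% rose. Vegfa, the vascular growth factor, was at 38.9, 38.2, 37.7 and 37.7 CPM in RGX-104 replicates 5 to 8, against 63.2, 60.8, 64.2 and 55.8 CPM in control replicates 1 to 4. The groups were far apart relative to their spread (log2 fold change -0.68 ± 0.09, edgeR adjusted p = 4.32e-05). Ndrg1, a stress- and hypoxia-responsive gene, was at 17.9, 18.8, 29.6 and 19.7 CPM in RGX-104 replicates 5 to 8, against 41.8, 44.8, 42.1 and 33.0 CPM in control replicates 1 to 4, and every RGX-104 library was lower (log2 fold change -0.91 ± 0.15, edgeR adjusted p = 0.000595). Kdm3a, a histone demethylase, fell to 33.7 ± 1.52 CPM in RGX-104, against 44.5 ± 5.48 CPM in control (log2 fold change -0.40 ± 0.11, edgeR adjusted p = 0.0448, and 0.0545 to 0.209 on leaving out any 1 library other than control replicate 2). Bnip3, a mitophagy receptor, was not called at 23.8 ± 4.66 CPM in RGX-104 and 32.6 ± 1.84 CPM in control (edgeR adjusted p = 0.0803, and 0.0452 without RGX-104 replicate 7).

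Among the listed genes that restrain the factor (Egln1, Egln2, Egln3, Hif1an and Vhl), only Egln3 was called. Of all genes tested, 0.888% were called higher. Egln3, a prolyl hydroxylase that marks the factor for degradation and is itself a target of it, was at 77.5, 77.1, 77.9 and 65.8 CPM in RGX-104 replicates 5 to 8, against 51.7, 53.2, 56.0 and 47.9 CPM in control replicates 1 to 4. All RGX-104 libraries were higher (log2 fold change 0.52 ± 0.09, edgeR adjusted p = 0.000750). Hif1an, an asparagine hydroxylase that blocks its activity, was not called at 40.5 ± 5.12 CPM in RGX-104 and 32.9 ± 2.65 CPM in control (edgeR adjusted p = 0.207). Egln1 was at 107 ± 6.40 CPM in RGX-104 and 105 ± 3.79 CPM in control. Egln2 was at 38.4 ± 5.23 CPM in RGX-104 and 36.7 ± 3.24 CPM in control (edgeR adjusted p = 0.861). Vhl was at 19.4 ± 3.51 CPM in RGX-104 and 17.4 ± 2.86 CPM in control (edgeR adjusted p = 0.747).

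**Figure D4:**
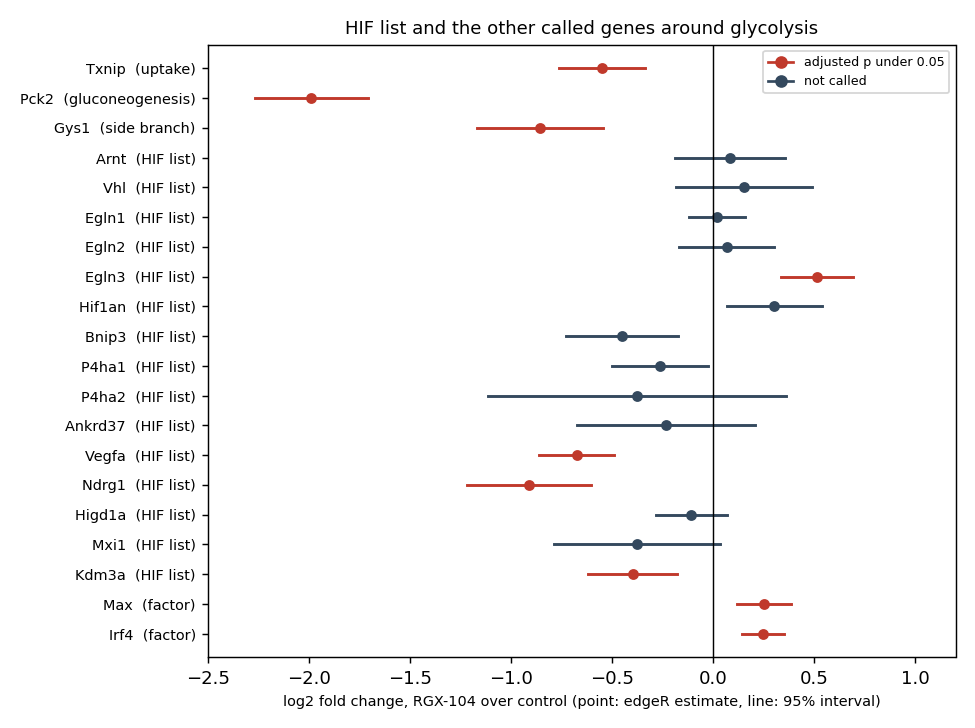
Log2 fold change of RGX-104 over control (x axis) with its 95% interval for the 15 listed genes of hypoxia-inducible factor (HIF list) and the 5 other called genes around glycolysis, red where the edgeR adjusted p was under 0.05. Pck2, at -1.99, lies farthest from 0, and Vegfa, Ndrg1 and Kdm3a lie below 0 while Egln3 lies above it.

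The remaining called genes stood at the borders of glycolysis. Pck2, the mitochondrial enzyme that makes phosphoenolpyruvate and a known ATF4 target, was at 9.82, 15.2, 13.8 and 12.4 CPM in RGX-104 replicates 5 to 8, against 46.8, 58.2, 51.9 and 46.7 CPM in control replicates 1 to 4 (log2 fold change -1.99 ± 0.13, edgeR adjusted p = 1.10e-09). Gys1, glycogen synthase, fell to 15.1 ± 3.14 CPM in RGX-104, against 27.3 ± 2.26 CPM in control (log2 fold change -0.86 ± 0.15, edgeR adjusted p = 0.00140). The exons of Gys1 overlap those of Ruvbl2 on the opposite strand over 310 bases, and Ruvbl2 had a log2 fold change of -0.09 (edgeR adjusted p = 0.727). Txnip, a brake on glucose uptake whose RNA is known to rise with glucose, was at 33.8, 38.0, 40.6 and 36.0 CPM in RGX-104 replicates 5 to 8, against 52.0, 59.6, 59.5 and 46.4 CPM in control replicates 1 to 4. Every RGX-104 library was lower (log2 fold change -0.55 ± 0.10, edgeR adjusted p = 0.00266).

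Of 7 tested transcription factors of glycolysis, 2 rose and 0 fell, where 0.888% of all genes tested rose and 1.78% fell. These factors belong to the same list, chosen with earlier results known, so the counts are only a description. Irf4, which T cell receptor signalling induces and which is known to maintain glycolytic genes in CD8 T cells, rose to 615 ± 28.4 CPM in RGX-104, against 519 ± 27.9 CPM in control (log2 fold change 0.24 ± 0.05, edgeR adjusted p = 0.00646). Max, the partner of MYC, rose to 225 ± 16.9 CPM in RGX-104, against 189 ± 13.3 CPM in control (log2 fold change 0.25, edgeR adjusted p = 0.0362, and 0.125 to 0.138 without control replicate 1 or 2 or RGX-104 replicate 7 or 8). Myc itself was at 162 ± 5.83 CPM in RGX-104 and 147 ± 19.0 CPM in control (edgeR adjusted p = 0.410). Genes of pyruvate entry into mitochondria gave 0 calls of 11 tested with edgeR and 1 at an unadjusted p under 0.05. The glutamine fructose phosphate transaminase Gfpt1, entry to hexosamine synthesis, was not called at 168 ± 8.31 CPM in RGX-104 and 153 ± 1.68 CPM in control (edgeR adjusted p = 0.252).

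Total counts ran from 13144704 to 14947537 in RGX-104 and from 14867824 to 15966972 in control libraries (exact two-sided permutation test, p = 0.0571; with 4 against 4 libraries p cannot go below 0.0286), and the 32 genes held 0.627% ± 0.0226 and 0.651% ± 0.00253 of them. The LXR target Abca1 was at 80.0 to 92.6 CPM in RGX-104 and 7.62 to 8.71 CPM in control. The listed CD8 T cell markers, like the other lists chosen with earlier results known, were all detected. All 9 had positive estimates and 5 were called higher in RGX-104, where 0.888% of all genes tested were, among them Cd8a at 397 ± 8.83 CPM in RGX-104 and 276 ± 9.58 CPM in control, and Gzmb, with the largest estimate, at 2162 ± 87.1 CPM in RGX-104 and 1287 ± 48.8 CPM in control. Of 15 dendritic cell markers 10 were tested and 0 called by edgeR (3 at an unadjusted p under 0.05), and the median log2 fold change of the 10 was -0.26. Those 3 were all lower in RGX-104: Ccl22 (1.61 ± 0.902 CPM in RGX-104 and 3.66 ± 0.682 CPM in control), Fscn1 (2.37 ± 0.613 and 4.23 ± 0.909 CPM) and Batf3 (58.6 ± 4.59 and 72.0 ± 4.50 CPM). For Ccl22 and Batf3 the groups did not overlap, as for 4.32% of all genes tested in that direction. Which cells the Batf3 reads came from was not tested. Ccl22 had only 8 to 70 counts a library and Fscn1 26 to 81. Over the 10 tested markers 7 estimates were negative and 3 positive: Itgax (log2 fold change 0.58 ± 0.45), Ccr7 (0.09) and Cst3 (0.02). The list summed to 594 to 705 CPM in RGX-104 and 613 to 681 CPM in control, mostly from Ccr7, which T cells express. H2-Aa, H2-Ab1 and H2-Eb1 were listed at 0 in all libraries. Cd74, of the same list, had 76 to 125 counts a library (5.58 ± 0.243 CPM in RGX-104 and 6.52 ± 1.33 CPM in control). Why the H2 genes stood at 0 was not tested, so these zeros do not show that dendritic cell RNA was absent. Macrophage and monocyte markers, with 9 of 12 tested and 0 called by edgeR (0 at an unadjusted p under 0.05), summed to 59.8 to 66.6 CPM in RGX-104 and 54.1 to 61.7 CPM in control. Erythroid markers, with 5 of 6 tested and 0 called, summed to 98.3 to 122 CPM in RGX-104 and 111 to 115 CPM in control. B cell markers, with 1 of 5 tested and 0 called, summed to 1.37 to 2.08 CPM in RGX-104 and 1.78 to 2.42 CPM in control. Dendritic cells also express glycolytic genes, and the part of such RNA in these values was not tested.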

How the data were processed

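RNA of 4 RGX-104 and 4 control samples was read with a Lexogen 3′ FWD kit, per the labels' protocols. The authors' deposited table holds raw counts of reads for each gene; the submitters' processing notes name STAR 2.7.8a, R 4.1.0, DESeq2 1.4 and GRCm38. The sources used here give no counting tool, strand setting, rule for multiply mapping reads or molecular identifiers, so counting precision covers counting error only. No column belonged to another series (0).

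Counts were tested here with edgeR 4.0.16 in R 4.3.3 (filterByExpr, TMM, quasi-likelihood test, two-sided, group as the only term), adjusted over 12162 genes. A standard error is the log2 fold change over the square root of F, and 95% intervals use the test's degrees of freedom. The common biological coefficient of variation was 14.5%. The scripts were tested on simulated data. Alternatives were DESeq2 1.42.0, limma-voom (limma 3.58.1), other scalings, no filter, merged entries and leaving out each library. Transcript ends were compared with blastn 2.17.0 against GENCODE M21. Coordinates and promoters are RefSeq GRCm38.p6. All called genes, and in each step the gene with the smallest p, were named by rule, as were the 3 uncalled further genes with the smallest p (Bnip3, Hif1an and Gfpt1). Members and lists were chosen with earlier results of these data known.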

Additional observations from a re-analysis of the deposited data

Results flagged for a closer look

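In 84 groups of 4 libraries (the 32 genes, the 9 other called genes and the summed level, in each treatment), 8 held a library far from the other 3 by Dixon's criterion, where chance flags about 1 in 20. Slc2a1 stood at 94.1 CPM in RGX-104 replicate 7, against 79.5 to 81.8 CPM in the other RGX-104 libraries. In the same library Ndrg1 stood at 29.6 CPM, against 17.9 to 19.7 CPM. RGX-104 replicate 5 was low for Pfkfb3, at 45.5 CPM against 51.7 to 52.3 CPM, and for Pdk1, at 44.3 CPM against 51.8 to 52.7 CPM. Egln3 stood at 65.8 CPM in RGX-104 replicate 8, against 77.1 to 77.9 CPM in the other RGX-104 libraries. Among control libraries, Slc2a3 stood at 29.7 CPM in replicate 2 (20.3 to 21.3 CPM in the others), Gys1 at 24.0 CPM in replicate 1 (28.1 to 28.8 CPM) and Pgd at 2.44 CPM in replicate 4 (0.605 to 0.757 CPM).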

How the results depend on the processing

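Pfkp was called lower in the main test and under all 15 alternatives, with a log2 fold change of -0.33 to -0.28, and no other gene of the set was called except Gapdh without control replicate 3 and Hif1a without control replicate 4. The number of the 32 genes called lower therefore ran from 1 to 2 when libraries were left out. For Pfkp there was no repeated entry to merge, and no alternative changed how reads in its overlap with Pitrm1 were counted. Uncalled estimates near 0 changed sign in some settings. With upper quartile scaling Gpi1 became -0.00519, Pdk1 -0.000282 and Pgk1 -0.00314, and with limma-voom Pgk1 became -0.000383 and Rpe -0.0591. When libraries were left out, the log2 fold change ran from -0.0458 to 0.0262 for Ldha, -0.0227 to 0.122 for Pdk3, -0.386 to 0.201 for Aldoc, -0.0164 to 0.0162 for Gpi1, -0.0380 to 0.0801 for Pdk1, -0.387 to 0.412 for Pfkfb4, -0.0366 to 0.116 for Pfkl, -0.0798 to 0.0346 for Pgam1, -0.479 to 0.712 for Pgd, -0.0639 to 0.0802 for Pgk1, -0.162 to 0.219 for Rpe, -0.0572 to 0.0117 for Slc16a1 and -0.113 to 0.0943 for Slc2a3. None of these was called, and the cause was not tested. The set's median log2 fold change ran from -0.05 to -0.00135 and its summed difference (RGX-104 minus control) from -346 to -176 CPM. Over all genes tested, 108 were called higher in the main test, 190 with DESeq2 and 57 to 93 when a library was left out; 216 were called lower, 295 with DESeq2 and 144 to 211 when a library was left out. Kdm3a lost its call in 9 of 15 alternatives and Max in 4, and Bnip3 gained one with DESeq2 and without RGX-104 replicate 7. No scaling moved the median of all genes by 0.1 on the log2 scale, but each scaling itself sets most genes near no change. A shift shared by most genes could therefore not be seen in this way. No paired analysis was run because the labels state no pairing of libraries between the groups, so any pairing in the cultures is unknown. The 7 genes under 10 CPM could not be bounded closely at their counts.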
